A study of Homo sapiens with 12 samples.

Results

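The response to PHF19 siRNA was compared gene by gene between MDA-MB-436 and BoM-1833, 2 human lines of breast cancer. The quantity described is the line by siRNA interaction, namely the log2 change from control to PHF19 siRNA in MDA-MB-436 minus the same change in BoM-1833, so that a positive value marks a gene that ended higher in MDA-MB-436 relative to its own control than in BoM-1833. All 12 libraries of the series entered 1 model. Of 29968 genes joined between the tables of both lines, 15031 had enough reads to be tested, and 672 of them (4.47%) were called at an adjusted p under 0.05 by edgeR's quasi-likelihood test.

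PHF19 belongs to the Polycomb-like proteins, which join the core of Polycomb repressive complex 2 (PRC2). PRC2 methylates lysine 27 of histone H3 and keeps developmental genes silent. The Tudor domain of PHF19 binds methylated lysine 36 of histone H3, and Polycomb-like proteins help to recruit PRC2 to CpG-rich DNA. Both lines are triple-negative, and BoM-1833 is a bone-tropic line.

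The 4 groups of 3 libraries were MDA-MB-436 with non-targeting siRNA (siNT), MDA-MB-436 with PHF19 siRNA (siPHF19), and the same pair in BoM-1833. All cells were reverse transfected with siRNA at a total of 5 nM and harvested after 72 h. siPHF19 was 2 siRNAs in equal parts, siNT was a pool of non-targeting siRNAs from another supplier, and neither a mock transfection nor a rescue was among the samples. Each line is a single cell line, and the labels do not say whether replicates came from separate cultures, so the p-values measure the spread between these samples, which may be technical.

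Depth lay between 13.7 and 24.0 M reads in genes per library. The BoM-1833 siPHF19 libraries averaged 14.8 M reads, against 18.9 M in each of the other groups. The chi-square of read counts, divided by its degrees of freedom, was 5.92 to 24.1 between siNT libraries of a line and 2.29 to 3.45 between siPHF19 libraries, so the controls spread more in both lines, and no library copied another. The first principal component held 94.9% of the variance and separated the lines. Of the mesenchymal markers, VIM, AXL, CD44, ZEB1 and FN1 averaged over 40 reads per M reads (CPM) in both lines, but SPARC averaged 1.21 CPM in BoM-1833. Of the luminal markers, ESR1, PGR and CDH1 averaged under 1 CPM in both lines. ERBB2 averaged 57.6 CPM in MDA-MB-436 and 65.4 CPM in BoM-1833, and EPCAM and FOXA1 averaged between 2.62 and 6.44 CPM. The luminal marker GATA3 averaged 0.114 CPM in MDA-MB-436 and 9.1 CPM in BoM-1833. Markers of other cell types were mixed. CD3E and SP7, which mark T cells and osteoblasts, were at 0 in all libraries. The myeloid marker CD68 averaged 35.7 CPM in MDA-MB-436 and 189 CPM in BoM-1833, and CD14 14.4 and 6.06 CPM. Of the endothelial markers, PECAM1 averaged 1.23 and 19.4 CPM and KDR 2.04 and 7.62 CPM, while CDH5 and VWF averaged under 1 CPM in both lines. The part of these markers in the results was not tested. The keratin gene KRT19, also a luminal marker, averaged 336 CPM in BoM-1833 and did not exceed 0.058 CPM in any MDA-MB-436 library.

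The targeted gene fell alike in both lines. PHF19 (chromosome 9, 120855652 to 120894896, minus strand, GRCh38) stood at 156, 180 and 200 CPM in the MDA-MB-436 siNT libraries and at 18.1, 17.4 and 16.8 CPM after siPHF19. In BoM-1833 it stood at 104, 102 and 101 CPM and at 11, 12.1 and 10.5 CPM. Control and treated libraries were far apart in either line. The log2 change was -3.36 in the former line and -3.20 in the latter, and the interaction was -0.16 (SE 0.13, adjusted p 0.546, edgeR's quasi-likelihood test).

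Of the 672 genes called in the interaction, 315 had a positive value (2.1% of genes tested) and 357 a negative one (2.38%). The median absolute interaction over the called genes was 0.58 on the log2 scale, against 0.19 over all genes tested, and 130 called genes reached an absolute value of 1 or more. Within the same model 3762 genes (25%) were called in MDA-MB-436, 12.2% higher and 12.8% lower. The corresponding count was 1466 genes (9.75%) in BoM-1833, 4.44% higher and 5.31% lower. The BoM-1833 siPHF19 libraries had the lowest mean depth, and the part of depth in these counts and in the classes below was not tested. The largest class of interaction genes, 412 or 61.3%, was called in MDA-MB-436 and not in BoM-1833, where 210 rose and 202 fell. A further 108 were called in BoM-1833 alone, 57 higher and 51 lower. Another 77 moved the same way in each line, called in both and with the larger change in MDA-MB-436, of which 53 fell and 24 rose, and 5 did so with the larger change in BoM-1833. In 47 genes (0.313% of those tested) the lines went in opposite directions, each called, and 23 were called in neither line alone. For comparison, 796 genes moved the same way with a call in each line. When 1 library was left out, the count of interaction calls ranged from 381 (without BoM-1833 siPHF19 replicate 2) to 1243 (without MDA-MB-436 siNT replicate 3).

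**Figure D1:**
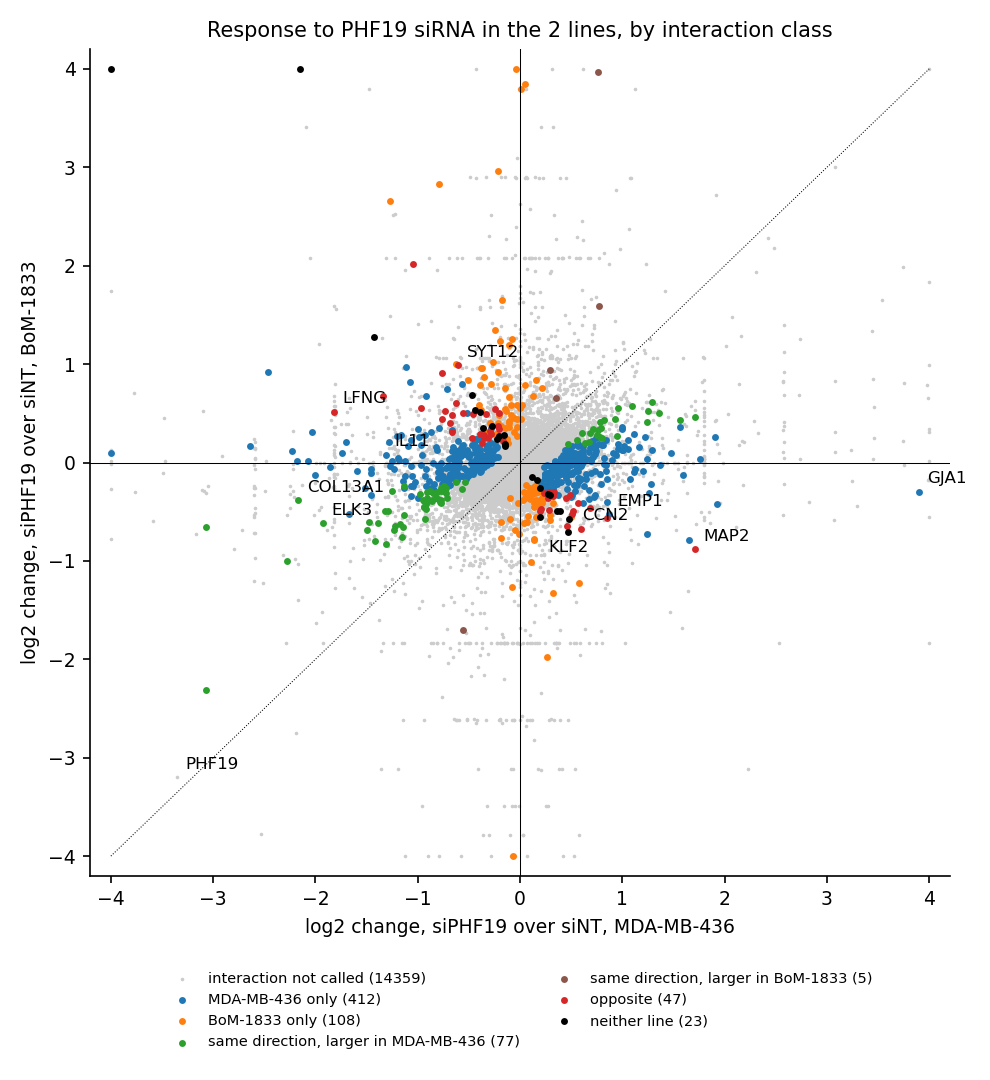
Log2 change from siNT to siPHF19 in MDA-MB-436 (horizontal axis) against BoM-1833 (vertical axis) for 15031 genes, with the genes called in the interaction coloured by class; the dotted line marks equal change, and 33 genes beyond 4 on either axis are drawn at the edge. Most coloured points spread along the horizontal axis, the class of 412 genes called in MDA-MB-436 alone, and the 47 opposite genes lie at upper left and lower right.

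Among genes with at least 100 normalized reads in each line, LFNG had the lowest interaction. LFNG (chromosome 7, 2512529 to 2529177, plus strand) encodes lunatic fringe, a glycosyltransferase that modifies Notch receptors. It stood at 14.1, 15.3 and 15.8 CPM in MDA-MB-436 siNT and at 4.29, 4.30 and 4.22 CPM after siPHF19. In BoM-1833 it stood at 34.6, 26.9 and 33.5 CPM and at 45.7, 47.0 and 43.3 CPM. The groups did not overlap in either line, and the treated libraries were the low ones in MDA-MB-436 and the high ones in BoM-1833. The log2 changes, -1.82 and 0.52, gave an interaction of -2.33 (SE 0.15, adjusted p 1.81e-07, edgeR's quasi-likelihood test). Non-overlapping groups alone are common in these data, at 40.3% of genes tested for MDA-MB-436 and at 28.2% for BoM-1833.

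IL11 encodes interleukin 11, a cytokine known from osteolytic bone metastasis (chromosome 19, 55364389 to 55370463, minus strand). Its level was 18.2, 18.6 and 18.1 CPM in MDA-MB-436 siNT and 6.85, 6.83 and 8.61 CPM after siPHF19. In BoM-1833 the level was 143, 131 and 140 CPM against 142, 142 and 155 CPM. All treated MDA-MB-436 libraries lay below their controls, while the BoM-1833 groups overlapped at a level several times higher. The interaction was -1.39 (SE 0.12, adjusted p 4.4e-06, edgeR's quasi-likelihood test).

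COL13A1, a transmembrane collagen (chromosome 10, 69801867 to 69964275, plus strand), fell in both lines. It went from 10.4, 9.15 and 9.29 CPM to 2.15, 2.44 and 1.74 CPM in MDA-MB-436. In BoM-1833, where it was much more abundant, it went from 301, 277 and 292 CPM to 220, 225 and 222 CPM. The fall was -2.17 in log2 in the former line and -0.38 in the latter, an interaction of -1.78 (SE 0.13).

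ELK3, an ETS-family transcription factor of the ternary complex factor group (chromosome 12, 96194382 to 96269835, plus strand), also fell in both lines. Its level was 78.4, 78.0 and 86.5 CPM against 20.8, 23.6 and 19.4 CPM in MDA-MB-436. In BoM-1833 it was 307, 329 and 335 CPM against 208, 213 and 213 CPM. No control library overlapped a treated one in either line. The log2 changes of -1.92 and -0.61 gave an interaction of -1.31 (SE 0.10). The hexamer AAACTG, chosen with earlier results of these data known, occurs 8 times in the longest annotated 3′ UTR of ELK3, which has 2658 bases. They are shown because the counts of this hexamer by interaction class are given further on. Each line gives a window of 20 bases of the GRCh38 transcript (GENCODE release 29), 5′ to 3′, with the hexamer in capitals.
ELK3 3′ UTR match 1: attttaaAAACTGtttttga
ELK3 3′ UTR match 2: gtatgctAAACTGtgtgctt
ELK3 3′ UTR match 3: cttgtggAAACTGagagagg
ELK3 3′ UTR match 4: tacaagaAAACTGaaaagca
ELK3 3′ UTR match 5: ctgatccAAACTGggcatta
ELK3 3′ UTR match 6: gcatttaAAACTGtgttgtc
ELK3 3′ UTR match 7: cctttggAAACTGggattaa
ELK3 3′ UTR match 8: cagtgttAAACTGctatggg

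Other genes among the lowest interactions behaved in several ways. PMEPA1, a TGF-beta-induced membrane protein that dampens SMAD signalling, went from 44.9, 41.7 and 50.3 CPM to 15.8, 15.4 and 14.1 CPM in MDA-MB-436. In BoM-1833 PMEPA1 averaged 16.6 ± 1.53 CPM (SD, n = 3) in controls and 15.6 ± 1.86 CPM (SD, n = 3) after siPHF19, with overlapping groups. The treated MDA-MB-436 libraries thus stood close to the level of both BoM-1833 groups. SERPINE2, the serine protease inhibitor protease nexin-1, showed a like pattern, with changes of -1.18 and 0.02 (interaction -1.20, SE 0.11). B4GALNT3, an N-acetylgalactosaminyltransferase, was instead called in BoM-1833, where it rose by 0.96, while the change of -0.38 in MDA-MB-436 was not called (interaction -1.34, SE 0.21).

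At the other end, EMP1 had the smallest p of the positive interactions. EMP1, a tetraspan membrane protein of the PMP22 family (chromosome 12, 13196716 to 13219939, plus strand), stood at 59.6, 61.8 and 59.1 CPM in MDA-MB-436 siNT and at 107, 111 and 107 CPM after siPHF19. In BoM-1833 it stood at 481, 502 and 534 CPM and at 349, 343 and 332 CPM. Treated libraries were all higher in MDA-MB-436 and all lower in BoM-1833. The log2 changes of 0.85 and -0.57 gave an interaction of 1.41 (SE 0.08, adjusted p 6.19e-08, edgeR's quasi-likelihood test).

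KLF2, a zinc finger transcription factor, was at a similar level in both lines at baseline. It moved from 18, 16.3 and 15.1 CPM to 26.6, 23.6 and 25 CPM in MDA-MB-436. It moved from 21.3, 18.6 and 20.7 CPM to 11.7, 13.5 and 12.7 CPM in BoM-1833. Neither pair of groups overlapped, and the interaction was 1.28 (SE 0.13). HDAC9, a class IIa histone deacetylase, did the same from a like starting level, with 49.4, 49.6 and 58.3 CPM against 72.4, 70.2 and 73.3 CPM in MDA-MB-436. In BoM-1833 HDAC9 was at 48.7, 61.1 and 51.6 CPM against 33.1, 35.3 and 34.6 CPM, and the interaction was 1.11 (SE 0.12).

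Other genes with a high interaction rose in MDA-MB-436, from a low level except for HIPK3, which averaged 50.7 CPM in controls there. The carboxypeptidase gene CPA4 rose from a mean of 5.05 ± 0.395 CPM to 16.4 ± 1.08 CPM (SD, n = 3) there, and from 23.7 ± 0.577 CPM to 32.5 ± 1.07 CPM (SD, n = 3) in BoM-1833, an interaction of 1.25 (SE 0.12). TMEM45A, a transmembrane protein gene, rose by 1.28 in MDA-MB-436 against -0.22 in BoM-1833. HIPK3, a homeodomain-interacting protein kinase, rose by 1.57 and 0.43, MAST4, a microtubule-associated kinase, by 1.07 in MDA-MB-436 against -0.17, and FAM46B, a non-canonical poly(A) polymerase, by 1.56 against 0.36. The network-forming collagen gene COL8A1 rose by 1.48 in MDA-MB-436, from between 1.91 and 2.66 CPM to between 5.77 and 7.31 CPM, and was at 135 to 161 CPM in every BoM-1833 library (interaction 1.38, SE 0.16). All 8 genes of the lowest and all 8 of the highest interactions kept their direction and their call in each of 21 other fits.

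**Figure D2:**
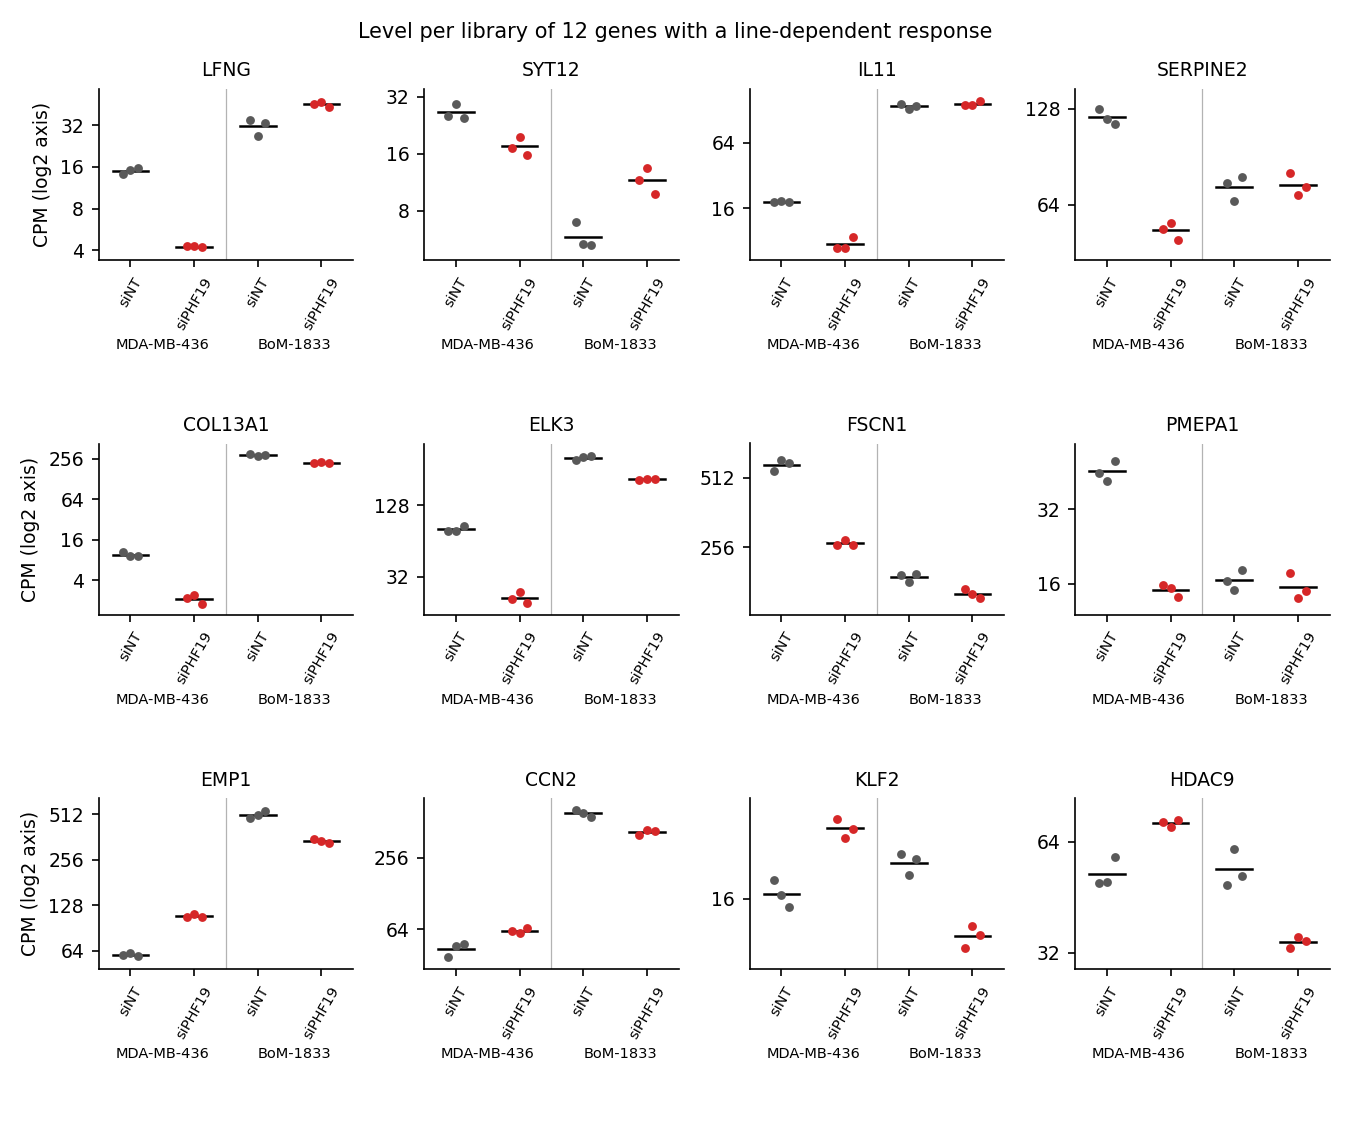
Level of 12 genes in each library, in CPM on a log2 axis that differs between panels, with grey points for siNT, red points for siPHF19, 3 libraries per group and a black line at the group mean. In the upper 2 rows siPHF19 lowered the level mainly or solely in MDA-MB-436, except that LFNG and SYT12 rose in BoM-1833; in the bottom row EMP1, CCN2, KLF2 and HDAC9 rose in MDA-MB-436 and fell in BoM-1833.

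The 47 genes that moved in opposite directions comprised 19 that were higher after siPHF19 in MDA-MB-436 and lower in BoM-1833, and 28 with the reverse pattern. Their median absolute interaction was 0.82. Being called 3 times, in each line and in the interaction, was the rule that chose them, so their direction is a description. No gene was called in opposite directions in the 2 lines without an interaction call. Changes of opposite sign add up in the interaction, so this follows largely from the rule and is no separate support. Leaving out 1 library gave between 24 such genes (without BoM-1833 siPHF19 replicate 2) and 77 (without MDA-MB-436 siNT replicate 3).

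CCN2, listed in the tables as CTGF, was among the 19. It encodes connective tissue growth factor, a secreted matricellular protein and a standard target of the Hippo pathway effectors YAP and TEAD (chromosome 6, 131948176 to 131951373, minus strand). It stood at 37.3, 46.2 and 47.7 CPM in MDA-MB-436 siNT and at 62.2, 59.5 and 65.0 CPM after siPHF19. In BoM-1833, where it was far more abundant, it stood at 644, 613 and 560 CPM and at 396, 443 and 427 CPM. The treated libraries were all above the controls in MDA-MB-436 and all below them in BoM-1833, with an interaction of 1.03 (SE 0.12, adjusted p 9.76e-05, edgeR's quasi-likelihood test).

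The CCN2 promoter is shown with that of ANKRD1, another gene of the YAP and TEAD list, described further on, whose interaction was not called. Both were chosen after their values were seen, as the windows with the most copies of the hexamer among 4 genes of the list that were looked at. Each is the 300-base RefSeq window (GRCh38.p14) from 250 bases before to 50 bases after the start, 5′ to 3′ on the gene's strand, at chr6:131951323-131951622 (minus strand) and chr10:90921038-90921337 (minus strand). Capitals mark GGAATG, the hexamer that TEAD factors are known to bind, searched on both strands.
CCN2: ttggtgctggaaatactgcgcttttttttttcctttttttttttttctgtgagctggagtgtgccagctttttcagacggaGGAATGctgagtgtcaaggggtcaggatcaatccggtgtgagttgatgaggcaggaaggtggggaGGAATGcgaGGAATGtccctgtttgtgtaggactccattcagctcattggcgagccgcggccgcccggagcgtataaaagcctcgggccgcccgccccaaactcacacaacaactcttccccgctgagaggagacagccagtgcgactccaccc
ANKRD1: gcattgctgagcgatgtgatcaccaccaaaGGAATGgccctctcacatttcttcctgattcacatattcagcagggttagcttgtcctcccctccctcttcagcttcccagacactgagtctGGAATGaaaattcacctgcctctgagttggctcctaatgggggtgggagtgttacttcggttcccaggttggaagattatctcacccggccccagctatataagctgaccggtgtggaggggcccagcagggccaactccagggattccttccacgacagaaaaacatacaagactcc
CCN2 holds 3 copies and ANKRD1 holds 2, against 1 for PTPN14 and 0 for IGFBP3, which were both called higher in the interaction. The hexamer was present in 14% of 35116 RefSeq promoter windows of this length, and 3 or more copies in 0.125%. Of 19 such windows of the YAP and TEAD list, which belong to 16 genes, 9 held it.

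Of the other genes higher in MDA-MB-436 and lower in BoM-1833, MAP2, which encodes a neuronal microtubule-associated protein, had the widest difference. It was scarce, at 0.927, 0.748 and 0.520 CPM against 2.90, 2.80 and 1.58 CPM in MDA-MB-436. In BoM-1833 it was at 3.53, 3.75 and 4.67 CPM against 2.53, 1.78 and 2.11 CPM (interaction 2.59, SE 0.38). PDZD2, a PDZ domain protein, changed by 0.68 and -0.46, and CTH, the cystathionine gamma-lyase that makes cysteine, by 0.52 and -0.49. For CTH the groups overlapped in MDA-MB-436.

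Of the 28 genes lower in MDA-MB-436 and higher in BoM-1833, SYT12, a synaptotagmin-family vesicle protein (chromosome 11, 67006778 to 67050863, plus strand), went from 25.5, 29.4 and 24.9 CPM to 17.2, 19.6 and 15.8 CPM in MDA-MB-436. In BoM-1833 it went from 6.96, 5.32 and 5.25 CPM to 11.7, 13.5 and 9.80 CPM. The lines thus moved toward each other, and no groups overlapped (interaction -1.59, SE 0.19). RRAD, a Ras-related GTPase, changed by -0.97 and 0.55, and ARHGAP25, a GTPase-activating protein for Rac, by -1.34 and 0.68 at levels under 5 CPM. The interaction of ARHGAP25, -2.02, was not called without MDA-MB-436 siPHF19 replicate 2 (adjusted p 0.0761, edgeR's quasi-likelihood test). With a replicate block within each line it was not called either. ANXA8, an annexin, TUBB2B, a beta-tubulin, and FAM47E-STBD1, a readthrough transcript, had interactions of -1.66, -1.23 and -3.07, but each shares sequence with a near-identical or overlapping gene, so their reads may have been assigned either way. In BoM-1833 FAM47E-STBD1 was at 0.58, 0 and 0.404 CPM against 1.51, 1.07 and 1.6 CPM. ANXA8 was at 1.35, 0.952 and 0.462 CPM against 1.81, 1.64 and 1.89 CPM there, so both rises rest on few reads.

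Genes picked from these 28 after their values were seen include secreted and signalling proteins. GAS6, a ligand of the receptor tyrosine kinase AXL, changed by -0.55 and 0.50 (interaction -1.05). IGFBP4, a binding protein of insulin-like growth factors, changed by -0.73 at a mean of 21 CPM in MDA-MB-436 and by 0.52 at 3813 CPM in BoM-1833 (interaction -1.25). VDR, the vitamin D receptor, changed by -0.33 and 0.49, and PTGES, a prostaglandin E synthase, by -0.46 and 0.25.

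Pathway lists were then read for how many tested members were called in the interaction, beside 4.47% of all genes. The share was 40% for the bone metastasis list, 27.3% for YAP and TEAD targets, 26.7% for integrins, 25.8% for genes of ERK output, 20.5% for axon guidance, 19.6% for collagens and matrix and 19.4% for NF-kB targets and cytokines. Lower shares were 16.7% for TGF-beta and BMP targets, 16% for sterol synthesis, 14.3% for NRF2 targets, 13.3% for hypoxia response and 12.5% for S phase. Proteases and inhibitors had 9.38%, and the motility and mesenchymal list 9.09%. Over the 21 other fits the number called ranged from 6 to 9 of the bone metastasis list, 5 to 12 of YAP and TEAD targets, 1 to 5 of integrins, 5 to 10 each of ERK output and axon guidance, 4 to 14 of collagens and matrix and 4 to 9 of NF-kB targets and cytokines. These lists overlap, and they were assembled with earlier results of these data known. The share called also rose with expression level over all genes, as given further on, and the part of level in these shares was not tested.

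**Figure D3:**
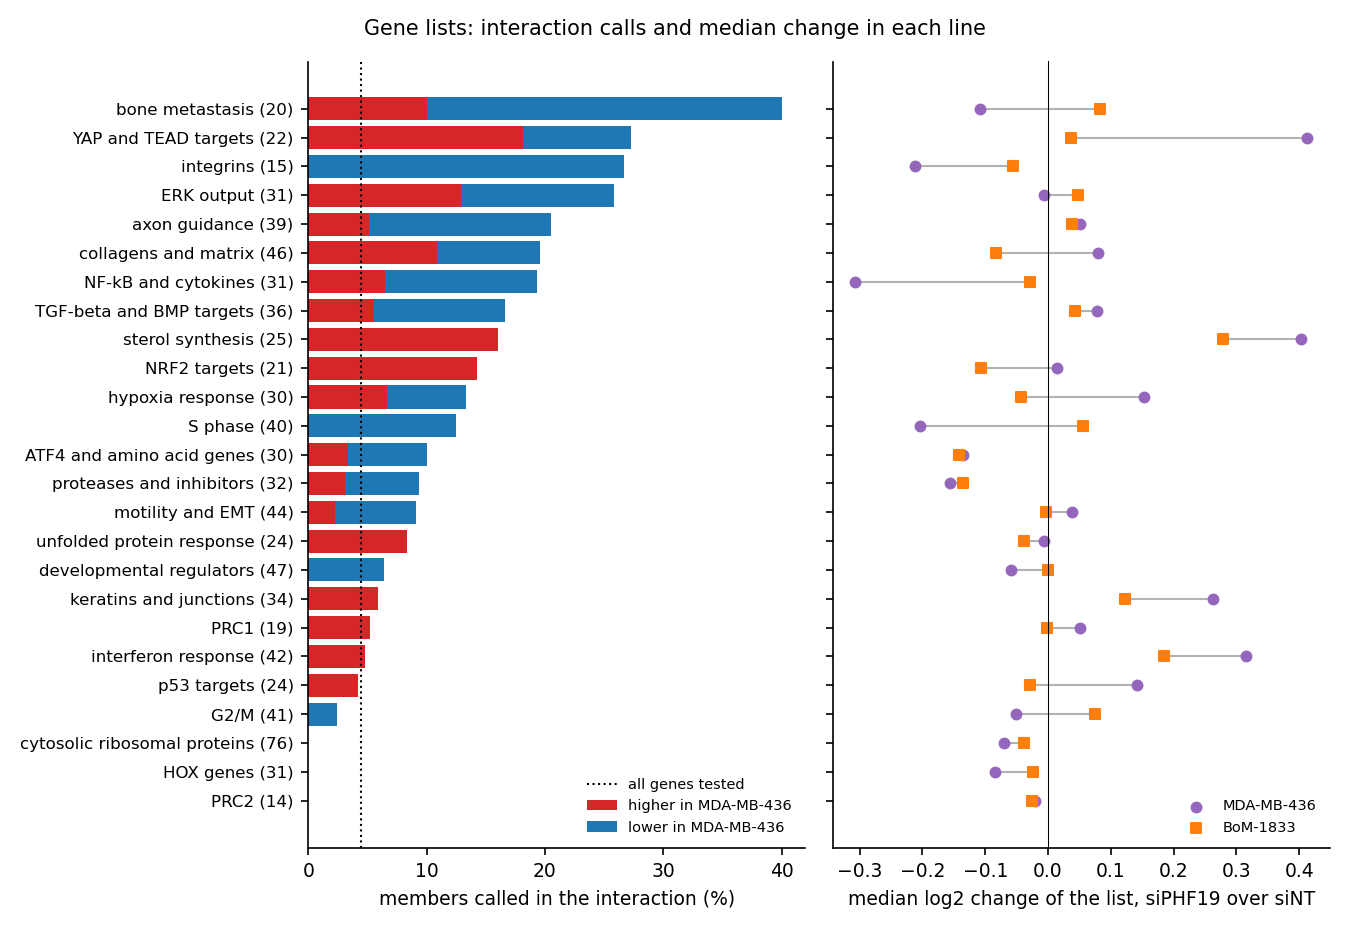
Left, the share of tested members of each of 25 lists called in the interaction, higher (red) and lower (blue) in MDA-MB-436, with the number tested in brackets and a dotted line at the 4.47% of all genes; right, the median log2 change of each list in MDA-MB-436 (circles) and BoM-1833 (squares). The bone metastasis list has the longest bar at 40%, and the medians of the YAP and TEAD list, 0.41 and 0.04, lie far apart.

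Of 22 YAP and TEAD targets, 14 rose and 2 fell in MDA-MB-436, against 4 that rose and 4 that fell in BoM-1833. The interaction was positive in 20 of the 22 and called higher in 4 and lower in 2, with a median of 0.36 beside 0.00 over all genes. Over the 21 other fits the number called higher ranged from 3 to 10. With median-of-ratios size factors and with limma-trend on values plus 1 it was 4. With upper-quartile scaling and with limma-trend on values plus 8 it was 5. It was 7 with the z test, 8 with DESeq2 and 9 without a filter on low counts. Without BoM-1833 siNT replicate 1 it was 8, and without MDA-MB-436 siNT replicate 3 it was 10. The 4 called higher were CCN2, IGFBP3, which encodes a binding protein of insulin-like growth factors (0.45 and -0.36, interaction 0.81), AMOTL2, an angiomotin that restrains YAP (0.80 and 0.25), and PTPN14, a phosphatase that restrains YAP (0.46 and -0.27, the latter not called). F3, tissue factor, went the other way, with 26.8, 22.8 and 25.1 CPM against 22.7, 24.4 and 21.7 CPM in MDA-MB-436. In BoM-1833 F3 went from 192, 195 and 179 CPM to 278, 306 and 313 CPM, so only there did the groups separate (interaction -0.78, SE 0.10). NT5E, the ecto-5′-nucleotidase CD73, fell in both lines and more in MDA-MB-436 (-1.13 and -0.53). ANKRD1, a cardiac ankyrin repeat protein and YAP target, had changes of 2.14 and 0.18 at means of 0.402 CPM in MDA-MB-436 and 377 CPM in BoM-1833, and its interaction of 1.96 was not called (SE 0.54, adjusted p 0.0524, edgeR's quasi-likelihood test).

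The bone metastasis list, genes known from breast cancer growth in bone, had 8 of 20 members called, 2 higher and 6 lower, with a median interaction of -0.20. IL11 was described above. CSF2, the cytokine GM-CSF, fell from 0.811, 1.08 and 0.649 CPM to 0.232, 0.177 and 0.225 CPM in MDA-MB-436. In BoM-1833 CSF2 was at 7.0, 7.05 and 7.96 CPM against 10.2, 8.90 and 8.13 CPM, a change that was not called, and the interaction was -2.34 (SE 0.38). CSF2 averaged 0.529 CPM in MDA-MB-436, so its fall there rests on few reads and nothing further is read from it. By limma-trend on log2 of the deposited values plus 8 the interaction was -1.28. Others of the 6 differed through BoM-1833: follistatin (FST) rose there by 0.58, TGFB1 by 0.36 and osteoprotegerin (TNFRSF11B), the decoy receptor of RANKL, by 0.76, with 0.02, -0.11 and -0.15 in MDA-MB-436, none of them called. FGF5, a fibroblast growth factor, fell by 1.06 in MDA-MB-436. The 2 higher were CCN2 and its relative CCN3. The matrix metalloproteinase gene MMP1 fell by 1.23 and 1.31 and had an interaction of 0.07, and JAG1, a Notch ligand, had one of 0.01, neither of them called.

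Of 31 NF-kB targets and cytokines, 16 fell and 2 rose in MDA-MB-436, against 10 that fell and 4 that rose in BoM-1833. Calls over all genes were 25% in the former line and 9.75% in the latter. The interaction was called lower in 4 and higher in 2, with a median of -0.22. IL1A, interleukin 1 alpha, fell from 244, 244 and 266 CPM to 170, 176 and 165 CPM in MDA-MB-436. In BoM-1833 it fell from 3.33, 3.75 and 2.83 CPM to 1.14, 0.996 and 0.871 CPM, the larger relative fall at a far lower level (interaction 1.14, SE 0.19). Among TGF-beta and BMP targets 2 of 36 were called higher and 4 lower, with a median of 0.01, among them PMEPA1, FSTL1, a secreted follistatin-like glycoprotein (0.69 and 0.30), and FSTL3, an activin antagonist that moved in opposite directions (-0.22 and 0.37).

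ERK output genes split, with 4 of 31 called higher and 4 lower and a median of -0.02. HBEGF, a ligand of the EGF receptor, stayed between 25.5 and 30.8 CPM in all MDA-MB-436 libraries. In BoM-1833 HBEGF fell from 91.9, 87.1 and 82.6 CPM to 50.2, 56.5 and 51.2 CPM (interaction 0.72, SE 0.11). KCNN4, a calcium-activated potassium channel, fell by 0.96 in MDA-MB-436 and changed by 0.08 in BoM-1833. The feedback phosphatase gene DUSP5 rose by 0.42 in MDA-MB-436 and changed by -0.11 in BoM-1833.

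Among integrins, 4 of 15 were called, all lower in MDA-MB-436 relative to BoM-1833: ITGB8 (-0.81 and 0.13), the laminin-binding chain ITGA6 (-0.78 and -0.40), ITGB1 (-0.25 and 0.05), the shared beta chain, and ITGA3, which rose by 0.26 in BoM-1833 and changed by -0.03 in MDA-MB-436. Without any 1 of the MDA-MB-436 siPHF19 libraries, any 1 of the BoM-1833 siPHF19 libraries or BoM-1833 siNT replicate 2, only 1 integrin was called, and without MDA-MB-436 siNT replicate 2 there were 2. In the axon guidance list 2 of 39 were called higher and 6 lower. SEMA3C, a secreted semaphorin, fell from 484, 513 and 540 CPM to 342, 324 and 307 CPM in MDA-MB-436 and was between 84.5 and 112 CPM in all BoM-1833 libraries. Ephrin B2 (EFNB2) fell by 1.13 in MDA-MB-436 and changed by -0.26 in BoM-1833. SEMA3D fell by 1.22 in BoM-1833 and changed by 0.58 in MDA-MB-436.

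Of 46 collagens and matrix genes, 5 were called higher and 4 lower, with a median of 0.06. LAMB3, a chain of laminin 332, fell in BoM-1833 from 832, 762 and 813 CPM to 540, 551 and 565 CPM and was between 18.3 and 22.1 CPM in MDA-MB-436. The remaining lists had fewer calls. In the motility and mesenchymal list 1 of 44 was called higher and 3 lower. FSCN1, the actin-bundling protein fascin, fell from 547, 611 and 592 CPM to 262, 274 and 260 CPM in MDA-MB-436. In BoM-1833 it fell from 193, 180 and 195 CPM to 169, 161 and 153 CPM (interaction -0.90, SE 0.08). SNAI2, the transcription factor Slug, fell from between 3.90 and 4.74 CPM to between 0.731 and 1.42 CPM in MDA-MB-436 and changed by -0.13 in BoM-1833, and the cell surface receptor gene CD44 fell by 0.29 in the former. Of 32 proteases and inhibitors, 2 were called lower, SERPINE2 and cathepsin L (CTSL, -0.60 and -0.05), and 1 was called higher.

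S phase genes, the replication machinery, moved by little but on 1 side. Of 40 members, 19 fell and 2 rose in MDA-MB-436, against 1 that fell and 3 that rose in BoM-1833. None of the 40 had a positive interaction, the median was -0.22, and 5 were called lower, among them MCM3, MCM7, POLD1 and MCM2. MCM3, a subunit of the replicative helicase, went from 199, 187 and 186 CPM to 147, 149 and 146 CPM in MDA-MB-436. In BoM-1833 it was at 305, 293 and 287 CPM against 284, 295 and 292 CPM (interaction -0.34, SE 0.07, adjusted p 0.0109, edgeR's quasi-likelihood test). The G2/M list had 1 of 41 called (2.44%, beside 4.47% of all genes), the survivin gene BIRC5 (-0.49 and 0.08), with a median of -0.10. Over the 21 other fits the median of the S phase list stayed between -0.24 and -0.18 and 0 to 2 members were positive, but the number called ranged from 0 to 10, the latter without BoM-1833 siNT replicate 1.

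**Figure D4:**
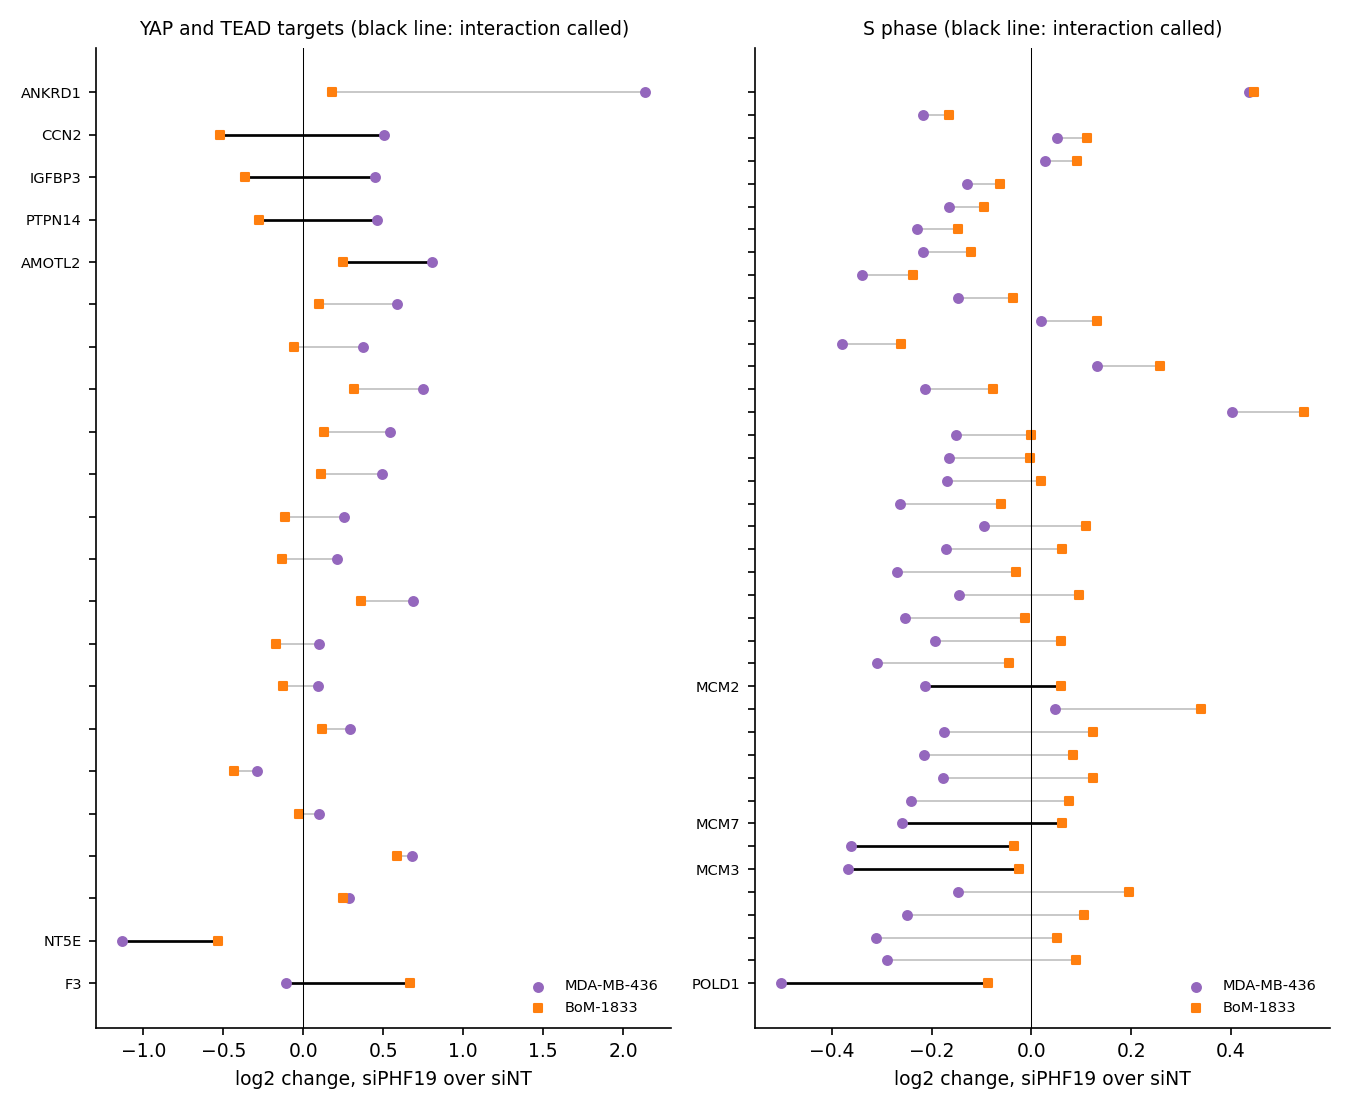
Log2 change from siNT to siPHF19 of each member of the YAP and TEAD list (left, 22 genes) and the S phase list (right, 40 genes) in MDA-MB-436 (purple circles) and BoM-1833 (orange squares), ordered by the interaction, with a black connecting line where the interaction was called and names for genes described in the text. Circles lie to the right of squares in 20 of 22 YAP and TEAD genes and to the left in all 40 S phase genes.

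Of 25 sterol synthesis genes, 21 rose in MDA-MB-436 and 18 rose in BoM-1833, none fell in either, and 4 were called higher in the interaction. HMGCS1, which makes HMG-CoA, rose from 193, 182 and 189 CPM to 401, 408 and 399 CPM in MDA-MB-436. In BoM-1833 it rose from 140, 154 and 136 CPM to 213, 209 and 219 CPM (interaction 0.52, SE 0.08). STARD4, a sterol transport protein, and HSD17B7, an enzyme of cholesterol synthesis, had interactions of 0.47 and 0.45. Interferon response genes had 2 of 42 called higher, RIG-I (DDX58, 0.48) and the ISG15 ligase HERC5 (0.40), a share of 4.76% beside 4.47%. NRF2 targets had 3 of 21 called higher: thioredoxin reductase (TXNRD1, 0.40 and -0.04), ferritin heavy chain (FTH1, 0.14 and -0.24) and heme oxygenase (HMOX1, 0.22 and -0.36). Hypoxia response genes had 2 of 30 called in each direction. ANGPTL4, an inhibitor of lipoprotein lipase, rose by 0.87 and EGLN3, a prolyl hydroxylase of HIF, by 0.68 in BoM-1833 with -0.36 and 0.12 in MDA-MB-436, while NDRG1, a stress-induced gene, rose by 0.72 in MDA-MB-436. NDRG1 went there from 57.6, 67.2 and 55.8 CPM to 77, 139 and 81.2 CPM, with 1 treated library well above the rest.

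In the lists closest to the function of PHF19 the counts lay near the 4.47% of all genes, and nothing is read from them about these lists. None of 14 PRC2 subunit genes, a list that includes the targeted PHF19, was called. Within MDA-MB-436 1 was called higher and 4 lower, PHF19 among the latter, beside 25% of all genes called there. Within BoM-1833 1 was higher and 3 lower, again with PHF19 among the latter, beside 9.75% of all genes. None of 31 HOX genes was called and 1 of 19 PRC1 genes (5.26%) was, CBX6, which encodes a chromodomain protein that binds methylated histone H3 (58.3, 54.4 and 54.9 CPM against 85.4, 82.2 and 90.0 CPM in MDA-MB-436, 119, 116 and 120 CPM against 132, 127 and 127 CPM in BoM-1833, interaction 0.50, SE 0.08). Among 47 developmental regulators 3 (6.38%) were called lower, GATA6 (-0.59 and 0.13), SOX9 (-0.72 and -0.26) and TFAP2C (-0.43 and 0.23), all transcription factors. None of 76 cytosolic ribosomal protein genes was called. These counts of 0 are from edgeR's quasi-likelihood test; over the 21 other fits up to 1 PRC2 gene, up to 4 HOX genes and 0 ribosomal protein genes were called.

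The remaining lists gave 1 to 3 calls each, beside 4.47% of all genes. For p53 targets the share was 4.17% and for keratins and junction genes 5.88%, near that of all genes. It was 8.33% for the unfolded protein response and 10% for ATF4 and amino acid genes. Nothing is read from these counts about the lists. In the unfolded protein response list DNAJB9 and DERL1, which act in endoplasmic reticulum quality control, were called higher (0.54 and 0.38) among 24. Of 30 ATF4 and amino acid genes, the transcription factor ATF3 was higher (0.71) and the serine synthesis enzyme PHGDH and the cysteinyl-tRNA synthetase CARS lower (-0.41 and -0.31). The cell cycle inhibitor CDKN1A was the sole call among 24 p53 targets (0.48). Of 34 keratins and junction genes, the plakophilin PKP2 (1.16 and 0.16) and GJA1 were called higher.

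Small interactions in these lists were not called in every fit. Of 21 other fits, the call was lost in 11 for CD44, in 10 each for CARS, CDKN1A, EGLN3, HERC5 and PHGDH, in 9 for ITGB1, in 8 each for ITGA6 and MCM7, in 6 each for DERL1 and HSD17B7, in 4 for HMOX1, in 3 each for ANGPTL4 and ATF3 and in 2 for FTH1. No interaction of a named gene changed sign in any of them.

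The share of genes called rose with level. It was 0.495% of 1414 genes under a mean of 1 CPM over the 12 libraries, 4.03% of 2755 genes between 4 and 16 CPM, 6.13% of 3329 genes between 64 and 256 CPM and 9.55% of 670 genes at 256 CPM or more. The median absolute interaction fell over the same bins, from 0.68 to 0.11. In the highest bin 41 genes were lower and 23 higher. The shares called within each line rose over the same range, from 7.07% to 32.4% for MDA-MB-436. For BoM-1833 they rose from 1.41% to 17.5%.

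The interaction also went with the difference in level between the lines, taken as the mean log2 CPM over the 6 libraries of each line. Genes more abundant in BoM-1833 were called more often. The share was 9.80% of 786 genes that were 2 to 4 log2 units higher in BoM-1833 and 7.55% of 265 genes more than 4 units higher there, against 3.95% of 9198 genes within 1 unit. It was 4.09% of 806 genes 2 to 4 units higher in MDA-MB-436 and 2.75% of 291 genes more than 4 units higher there. Of the calls in the bin of 786 genes, 46 were lower and 31 higher. LFNG, IL11, COL13A1, ELK3, EMP1 and CCN2 all stood higher in BoM-1833, with a difference in mean log2 CPM (MDA-MB-436 minus BoM-1833) of -2.15 for LFNG and -5.63 for COL13A1, whereas PMEPA1 and SYT12 stood higher in MDA-MB-436 (0.69 and 1.34). With levels from the siNT libraries alone, which also enter the interaction, the 2 highest shares were again on the BoM-1833 side, 10.5% of 809 genes and 6.79% of 265, but in the bin of 809 genes 45 calls were higher and 40 lower, so the balance turned. These shares are descriptions over genes, which are not independent, and depth of reads per gene differs between bins.

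**Figure D5:**
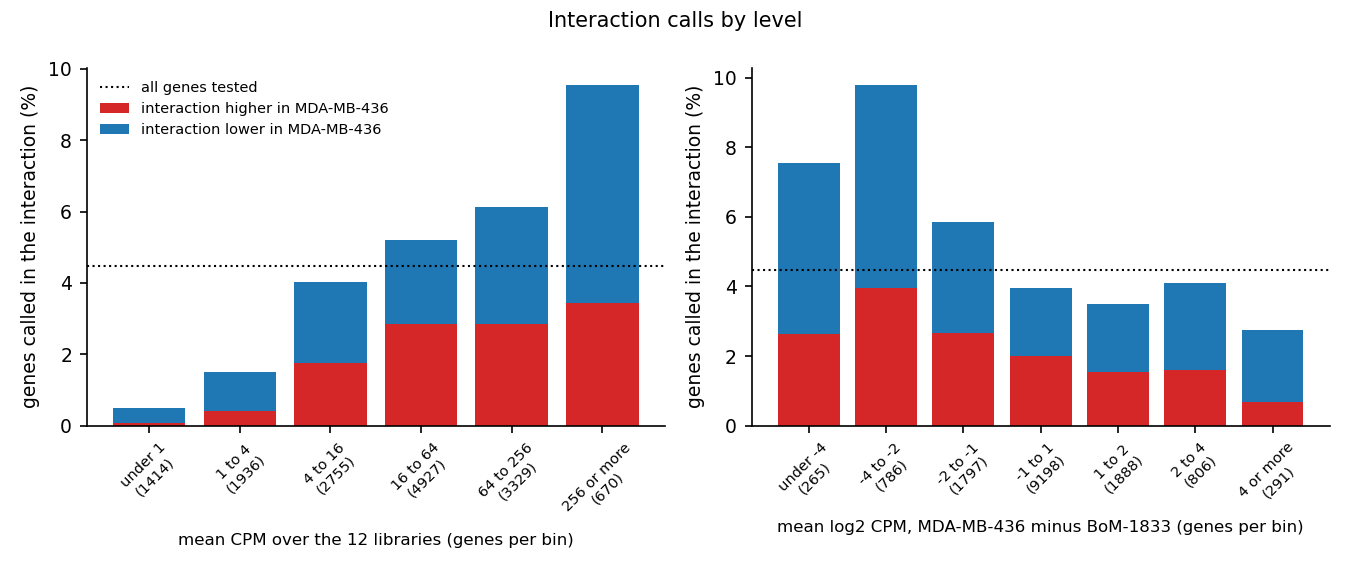
Share of genes called in the interaction, higher (red) or lower (blue) in MDA-MB-436, by mean CPM over the 12 libraries (left) and by the difference in mean log2 CPM between lines (right), with the number of genes per bin in brackets and a dotted line at 4.47%. The share climbs from 0.495% to 9.55% with level, and is highest, 9.80%, in genes 2 to 4 log2 units higher in BoM-1833.

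Some genes were scarce in 1 line. Of 446 genes at 5 CPM or more in MDA-MB-436 and under 1 CPM in BoM-1833, 5 were called, and of 336 genes with the reverse pattern, 7, beside 4.47% of all genes. Such genes passed the filter on low counts through their level in the other line, and 0.495% of all genes under a mean of 1 CPM were called, so nothing is read from these counts. GJA1, the gap junction protein connexin 43 (chromosome 6, 121435577 to 121449727, plus strand), was at 0.174, 0.0832 and 0.0649 CPM in MDA-MB-436 siNT and at 1.57, 1.42 and 2.08 CPM after siPHF19. In BoM-1833 it was at 23.9, 23.7 and 23.7 CPM against 20.3, 18.7 and 19.0 CPM, a change that was not called. All treated MDA-MB-436 libraries stood above the controls while remaining far below BoM-1833, with a log2 change of 3.90 and an interaction of 4.19 (SE 0.35, adjusted p 4.4e-06, edgeR's quasi-likelihood test). The controls there hold few reads, and the value was 2.27 by limma-trend on log2 of the deposited values plus 8. PRSS3, a trypsinogen gene with close paralogs, fell by 3.07 in MDA-MB-436 from between 0.844 and 1.85 CPM and by 0.66 in BoM-1833. On the other side, FGFBP1, a carrier of fibroblast growth factors, rose by 0.76 in MDA-MB-436 and had a fitted change of 3.97 in BoM-1833 at no more than 0.436 CPM, PDE9A, a cyclic GMP phosphodiesterase, fell by 0.92 in MDA-MB-436, and the uncharacterised LOC100996760 was called in BoM-1833 at no more than 0.723 CPM. The calls of FGFBP1 and PDE9A were lost in 13 and 12 of 19 other settings.

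The hexamer AAACTG was counted in the longest annotated 3′ UTR of each gene (GENCODE release 29), which 12940 of 15031 tested genes (86.1%) had. It was present in 49.9% of them. Among genes lower in both lines with a larger fall in MDA-MB-436, 38 of 49 had it (77.6%) at 1.02 copies per kilobase, against 0.459 over all tested genes. Among genes lower in both lines without an interaction call the share was 75.7% (281 of 371), at 0.704 copies per kilobase. Among those higher in both it was 41.5% (124 of 299), at 0.372. The share was 15 of 19 (78.9%) for opposite genes higher in MDA-MB-436 and lower in BoM-1833 and 11 of 28 (39.3%) for the reverse. Per kilobase these opposite genes had 0.66 and 0.464 copies, and their median UTR lengths were 2103 and 1322 bases. Genes called in MDA-MB-436 alone had it in 54.5% where they fell, at 0.600 copies per kilobase, and in 65.8% where they rose, at 0.488, so that the order by share and the order per kilobase were opposite. The median UTR lengths of these groups were 1432 and 2375 bases, and the part of length in the shares was not tested. Over all tested genes with a 3′ UTR, bins of 0, 1, 2 and 3 or more copies were compared. The median log2 change in MDA-MB-436 was -0.0013, 0.0, -0.0024 and 0.0059 in these bins. In BoM-1833 it was 0.013, -0.011, -0.029 and -0.056. Median UTR length rose from 964 to 4410.5 bases over the same bins. ELK3 has 8 copies, PMEPA1 5, B4GALNT3, FSCN1, NT5E and SERPINE2 2 each, and LFNG, COL13A1, SYT12 and CSF2 none. A match of 6 bases is a description of these letters and not of a site in use.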

How the data were processed

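mRNA was sequenced from 12 libraries, 3 for each of 4 groups taken from the sample titles. Per the submitters' processing notes, STAR, RSEM 1.3.1, DESeq2 1.46.0 and hg38 were used; which annotation was used and whether counting was stranded are not given in the sources used here. The authors deposited 1 table per line with 29972 gene rows: values per library that are a signal (read counts divided by a size factor), fold changes with standard errors on the log2 scale, and the Wald statistic. The authors' deposited Wald statistic is a score, the log2 fold change over its standard error, and the deposited p-values and adjusted p-values are the authors' DESeq2 output, per the file headers. No per-sample column was without a sample (0). Every value per library was a whole multiple of 1 step within a tolerance of 0.01 (100%), so whole reads were recovered, which may be rounded RSEM estimates. The tables were joined by gene name, leaving out 4 rows with repeated names; 28 date-like names per table were kept in the fit and not named.

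The count test on recovered reads was the main test, as the comparison across both tables needs a common scaling, in place of limma on the deposited values, which is an alternative. edgeR 4.0.16 in R 4.3.3 was run with TMM scaling, the default filter on low counts by group and group means, and the interaction and both changes within lines were contrasts of this model. Standard errors are the absolute log2 change over the root of F. A gene was called at a Benjamini-Hochberg adjusted p under 0.05 over all 15031 genes, which gave 672 interaction calls. CPM values use the TMM-scaled library sizes and are not per length, so they are compared between libraries and not between genes. On simulated data with 200 of 14874 genes given an interaction, 96% of those with a log2 value of 1 and 53% of those with 0.5 were found, with 9 false calls. These 200 were drawn only from genes above a minimum mean read count in both lines. The simulated spread followed the trend over level, without differences between single genes. Recovery for genes scarce in either line was not simulated.

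Alternatives were DESeq2 1.42.0, upper-quartile scaling, median-of-ratios size factors, no filter, a filter of 1 CPM in 3 libraries of each line, limma-trend (3.58.1) on log2 of the deposited values plus 1 or plus 8, a z test on the deposited log2 fold changes, a minimum absolute interaction of 1, a replicate block and leaving out each of 12 libraries. Named genes were PHF19; the 8 highest and 8 lowest called interactions with at least 100 normalized reads in each line; 6 opposite genes of each kind with the largest smaller change; up to 3 genes of each kind expressed at 5 CPM in 1 line and under 1 CPM in the other; and the 3 members with the smallest interaction p of each of the 25 lists with a call. Others are named as members of a list called in it, or were chosen after their values were seen. A few genes chosen by these rules are not reported here. The comparison, the lists and the hexamers were chosen with earlier results of these data known. Positions and 3′ UTRs are from GENCODE release 29 and promoters from RefSeq GRCh38.p14.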

Additional observations from a re-analysis of the deposited data

Results flagged for a closer look

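The lines differed, by the test of the interaction itself, in 672 genes, and 47 genes were called in opposite directions. Opposite genes higher in MDA-MB-436 after siPHF19 and lower in BoM-1833 had interactions of 1.03 for CTGF (CCN2), 1.01 for CTH, 1.41 for EMP1, 1.28 for KLF2, 2.59 for MAP2 and 1.15 for PDZD2 on the log2 scale. Opposite genes lower in MDA-MB-436 and higher in BoM-1833 had interactions of -1.66 for ANXA8, -2.02 for ARHGAP25, -3.07 for FAM47E-STBD1, -1.52 for RRAD, -1.59 for SYT12 and -1.23 for TUBB2B. ANXA8 and FAM47E-STBD1 averaged 0.922 and 0.328 CPM in BoM-1833 siNT, so their rises there rest on few reads. The call of ARHGAP25 was lost in 2 of 19 other fits and that of CTH in 1 of 21. Other called genes are described in the results and are not repeated here.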

How the results depend on the processing

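Of 79 called genes chosen by the rule for named genes, 51 kept their call in every fit tried and 28 lost it in at least 1; none changed sign. Interaction calls numbered 672, and between 600 and 905 under other scalings, filters and tests (905 with DESeq2, 657 and 891 with limma-trend, 600 with the z test). A minimum absolute interaction of 1 left 130 calls and 19 opposite genes. Without 1 library the calls ranged from 381 to 1243 and the opposite genes from 24 to 77. Calls moved by over 1.5 times without MDA-MB-436 siNT replicate 2 (415) or 3 (1243), MDA-MB-436 siPHF19 replicate 1 (388) or 3 (426), and BoM-1833 siNT replicate 2 (447) or siPHF19 replicates 2 (381) and 3 (412). Opposite genes did so without MDA-MB-436 siNT replicate 3 (77), MDA-MB-436 siPHF19 replicate 2 (29), BoM-1833 siNT replicates 1 (73) and 2 (31), and BoM-1833 siPHF19 replicates 2 (24) and 3 (31). The cause was not tested. Limma-trend with 8 added, which shrinks low values by construction, moved 6 of the 79 interactions by over 1.5 times, to -1.17 for ARHGAP25, -1.28 for CSF2, -0.0869 for FGFBP1, 2.27 for GJA1, -1.15 for LOC100996760 and -1.02 for PRSS3. FGFBP1 also moved from -3.21 to -5.04 without BoM-1833 siNT replicate 3. Without a filter 57.0% of calls were higher, against 46.9%.

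Same-numbered libraries did not deviate alike: their deviations correlated by between -0.37 and 0.04. Differently numbered libraries correlated by between -0.23 and 0.40. The highest pair in each line was siNT replicate 3 with siPHF19 replicate 1 (0.40 in BoM-1833, 0.37 in MDA-MB-436). Deviations from a mean of 3 libraries offset each other by construction, so these correlations do not settle whether the numbers mark paired samples. What the libraries shared was not tested. With a replicate block within each line there were 262 interaction calls, 259 of them shared with the 672, and 21 opposite genes. The block ended the call of 26 of the 79 genes. In 8 of these no other fit did so: BIRC5, CTH, CTSL, DDX58, DNAJB9, FSTL1, MCM3 and SOX9, with adjusted p between 0.0523 (DNAJB9) and 0.101 (MCM3) by edgeR's quasi-likelihood test.

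With 3 libraries per group and 53% recovery of simulated interactions of 0.5, many small differences lie below what these data can show. That recovery is for genes above a minimum mean read count in both lines and was not simulated for scarcer genes. Both lines were read against their own control pool, and siRNA sequence and loss of PHF19 cannot be told apart in this design.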
